A study of Mus musculus with 3 samples.

Results

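The 1205 peaks described here lay in promoters and had sequence of lower G plus C (GC) content, out of 25704 peaks of anti-FLAG ChIP-seq on the main chromosomes. A peak belonged to the set if its midpoint fell between 1000 bp upstream and 100 bp downstream of any GENCODE basic transcription start site (TSS) and if less than 55% of its central 200 bp was G or C. Of 2191 promoter peaks, 1205 met the GC limit and 986 did not. Those 986 are called GC-rich promoter peaks here, and a further 22165 peaks below 55% GC lay outside promoters. The tissue was E12.5 mouse tongue, dissected from embryos in which both Foxf2 alleles carry a 3xFLAG tag at the native locus, so the tagged factor was made under the control of the gene itself. The series holds 2 anti-FLAG ChIP libraries and 1 input library, all from this genotype. Each label gives 75 dissected tongues without saying if these were pooled for 1 library or for the series.

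Foxf2 is a forkhead transcription factor of embryonic mesenchyme, and in the head it acts downstream of Hedgehog signals from the epithelium in the developing palate and tongue. Forkhead proteins bind a short AT-rich core, and many vertebrate promoters are instead rich in G, C and CpG. Promoters of low GC content often belong to genes used in particular tissues, whereas CpG islands mark the starts of most widely used genes. The deposited list holds 1 score and 1 focus ratio per peak and no value per library. Peaks were therefore not compared between replicates or between ChIP and input, and every p-value below describes this list of peaks, which are not replicates of a condition. A FLAG ChIP from untagged tissue was not analysed here, and a peak list gives no transcript levels against which the tissue label could be checked.

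Sequences around the centres of 8 of these promoter peaks are shown first, because they carry the feature that most set the peaks apart from their surroundings. They are read from the RefSeq GRCm38 (mm10) genome on the strand of the gene, with each match to the forkhead core in capitals. The core was searched on both strands as GTAAACA or its variant GTAAATA, and as ATAAACA or its variant ATAAATA. Read from the other strand these appear as TGTTTAC or, for the variants that end in TA, as TATTTAC, and likewise as TGTTTAT or, for its variant, TATTTAT. Colec10, Sox5, Hexim1, Cited2, Pde4b and Disp1 are among the 25 highest-scored members, and Pdgfra and Col3a1 are genes widely used in mesenchyme.
Colec10 (chr15:54410451-54410650, + strand): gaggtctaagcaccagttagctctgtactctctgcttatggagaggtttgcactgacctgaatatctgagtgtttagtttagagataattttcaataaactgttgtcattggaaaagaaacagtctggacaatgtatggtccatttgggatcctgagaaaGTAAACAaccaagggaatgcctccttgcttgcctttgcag
Sox5 (chr6:144210150-144210269, - strand): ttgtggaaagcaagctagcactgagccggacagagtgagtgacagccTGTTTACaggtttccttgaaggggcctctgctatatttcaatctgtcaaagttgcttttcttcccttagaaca
Hexim1 (chr11:103115541-103115660, + strand): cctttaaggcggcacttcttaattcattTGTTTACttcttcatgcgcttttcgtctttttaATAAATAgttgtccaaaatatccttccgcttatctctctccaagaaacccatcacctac
Cited2 (chr10:17722265-17722384, + strand): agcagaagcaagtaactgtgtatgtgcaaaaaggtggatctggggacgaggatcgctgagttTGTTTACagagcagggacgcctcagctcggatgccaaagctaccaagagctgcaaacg
Pde4b (chr4:102569997-102570116, + strand): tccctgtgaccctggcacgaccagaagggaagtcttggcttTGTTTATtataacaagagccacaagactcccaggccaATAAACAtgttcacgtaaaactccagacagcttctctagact
Disp1 (chr1:183147857-183147976, - strand): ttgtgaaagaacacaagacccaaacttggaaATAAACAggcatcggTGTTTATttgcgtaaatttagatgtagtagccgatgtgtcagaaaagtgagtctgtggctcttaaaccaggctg
Pdgfra (chr5:75152216-75152335, + strand): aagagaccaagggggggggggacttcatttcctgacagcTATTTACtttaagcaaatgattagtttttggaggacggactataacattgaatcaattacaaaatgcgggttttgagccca
Col3a1 (chr1:45311355-45311474, + strand): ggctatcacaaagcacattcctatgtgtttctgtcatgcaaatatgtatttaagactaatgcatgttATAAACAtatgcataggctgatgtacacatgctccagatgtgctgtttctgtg
Colec10, Sox5, Cited2, Pdgfra and Col3a1 each had 1 core in the central 200 bp, whereas Hexim1, Pde4b and Disp1 each had 2. The pair at Disp1 lay 15 bp apart on opposite strands, and the pair at Hexim1 lay 33 bp apart, also on opposite strands.

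The forkhead core was present in 846 of the 1205 lower-GC promoter peaks, or 70.2% (exact 95% interval 67.5 to 72.8), where 72.5% of all peaks of the list held one. Of the 200 bp windows centred 2000 bp away, 17.2% held it on the side of lower genome coordinates and 16.3% on the other. These flanks were placed without regard to the strand of the gene and were not limited in GC content. The peaks thus had it 4.19 times as often as the mean of their flanks (two-sided exact McNemar test, adjusted p = 1.63e-134 over 25 motifs). Windows below 55% GC at promoters with no peak within 2000 bp held it in 18.6%. The strict form GTAAACA was present in 354 members (29.4%, interval 26.8 to 32.0), beside 27.4% of all peaks. In their flanks GTAAACA occurred in 3.03%, a 9.70-fold difference (exact McNemar test, adjusted p = 7.56e-67).

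Against the other peaks of the same GC range, the promoter peaks had the core slightly less often, with 70.2% against 74.6% (odds ratio 0.804, two-sided Fisher's exact test, adjusted p = 0.00281). This difference was small and did not hold within 5-point bins of GC content, where the Mantel-Haenszel odds ratio was 0.885 (95% interval 0.778 to 1.01). For GTAAACA alone the direction turned, with 29.4% of the promoter peaks and 27.2% of the others (Fisher's exact test, adjusted p = 0.164). Of the 4 forms ATAAACA differed most in share, with 33.3% of the promoter peaks and 40.3% of the other peaks, a value given without a test.

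Against GC-rich promoter peaks the core was more frequent, with 70.2% against 48.0% (interval 44.8 to 51.1, Fisher's exact test, adjusted p = 4.68e-25). Base composition differs between these classes by the rule that made them, and the core is AT-rich. This test therefore does not separate the core from base composition, and the forms are given as values. ATAAACA was present in 33.3% of the lower-GC and 14.5% of the GC-rich promoter peaks, and ATAAATA in 12.1% and 3.35%. GTAAATA was present in 9.63% and 5.48%, and GTAAACA in 29.4% and 26.5% (Fisher's exact test, adjusted p = 0.192). Among peaks at or above the median score of the list, the core was present in 76.4% of lower-GC and 74.5% of GC-rich promoter peaks (Fisher's exact test, adjusted p = 0.608), so the difference between the classes did not pass the test there. With the GC limit applied to 1000 bp around the TSS the shares were 67.1% and 54.7% (Fisher's exact test, adjusted p = 2.31e-08), a smaller difference.

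Within the lower-GC promoter peaks the core was less frequent nearer to the GC limit, apart from the 32 peaks of 30 to 35% GC with 68.8%. It was present in 77.9% of the 145 peaks of 35 to 40% GC and in 77.5% of the 285 peaks of 40 to 45% GC. From 45 to 50% GC it was present in 68.3% of 407 peaks, and from 50 to 55% GC in 63.1% of 336 peaks. Peaks outside promoters held it in 77.6, 74.1, 71.8 and 70.0% of the same 4 bins, and promoter windows without a peak in 25.5, 18.2, 10.8 and 5.84%. The share in promoter peaks thus varied less over these bins, relative to its level, than the share in windows without a peak.

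**Figure D1:**
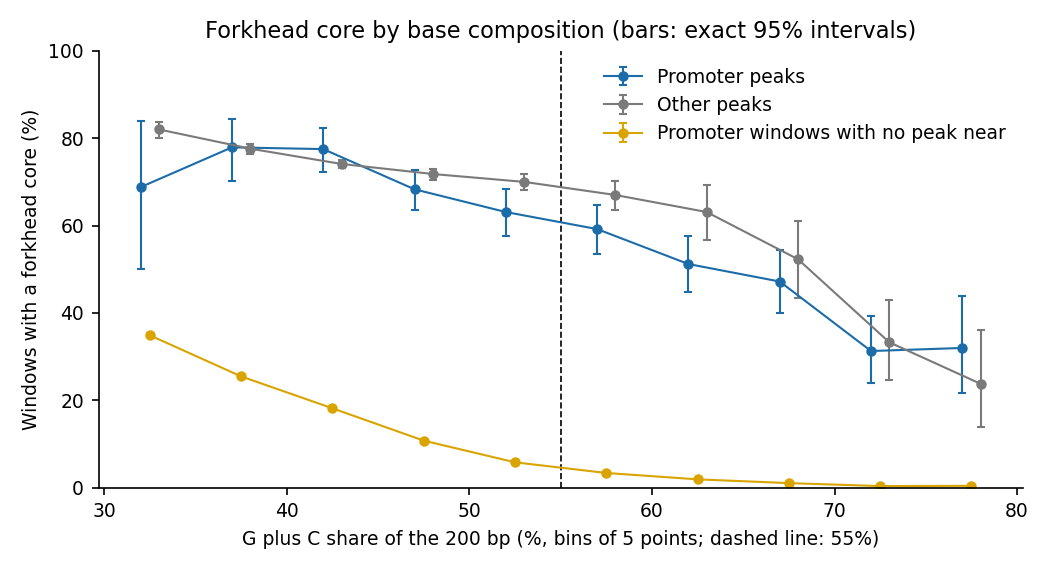
Share of 200 bp windows with a forkhead core (y axis, %) by GC content (x axis, bins of 5 points) in promoter peaks, other peaks and promoter windows with no peak within 2000 bp, with exact 95% intervals; the dashed line marks 55%. Promoter peaks run at 63.1% from 50 to 55% GC and 59.2% from 55 to 60%, while the windows without a peak stay at or below 34.9%.

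The cores lay near the peak centres. Of 1095 matches in the lower-GC promoter peaks, 664 (60.6%) had their midpoint within 20 bp of the peak centre, at a median distance of 14.0 bp. The GC-rich promoter peaks had 502 matches, of which 77.1% lay within 20 bp, and the other peaks below 55% GC had 56.5% of theirs within that distance. Most members had a single core: 644 peaks (53.4%) held 1, 165 (13.7%) held 2, 37 (3.07%) held at least 3 and 359 (29.8%) held none. The core showed little preference for a direction relative to transcription, with 565 matches on the strand of the gene and 530 on the opposite strand (51.6% on the same strand, exact interval 48.6 to 54.6).

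**Figure D2:**
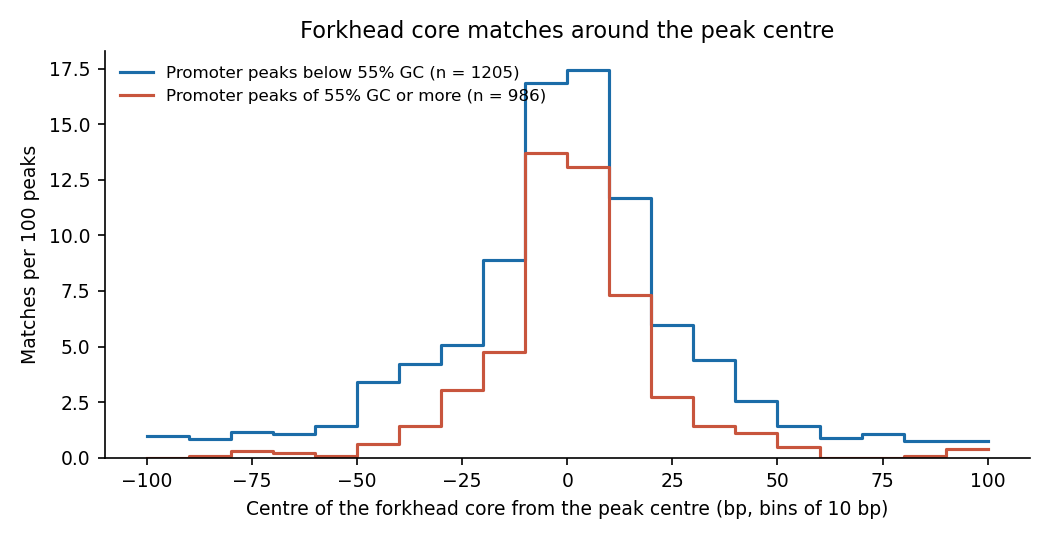
Forkhead core matches per 100 peaks (y axis) by distance of the core's midpoint from the peak centre (x axis, bins of 10 bp) in lower-GC and GC-rich promoter peaks. Both classes are highest within 10 bp of the centre and low beyond 50 bp, and 60.6% of the matches in lower-GC promoter peaks lie within 20 bp.

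The share with a core was higher among higher-scored members, which is given as a description. In 4 nearly equal parts of the members, from the lowest to the highest scores, 58.9, 68.8, 71.1 and 82.1% held a core and 23.2, 25.2, 31.6 and 37.5% held GTAAACA. The median GC content was 46.5% in each of the 4. The median score was 16.5 in the members with a core and 14.0 in those without.

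The 359 members without a core held sequences that differ from it by 1 base more often than their flanks did. This is given as a description because these relatives of the core were picked after the counts of 7-base sequences were seen. CTAAACA was present in 16.7% of these members and in 4.04% of their flanks, GCAAACA in 9.47% and 2.79%, and ACAAACA in 19.8% and 7.80%. Sequences that are not such relatives were also more frequent. Among them were AAACAAA (30.6% and 13.4%) and CATCTGG, which contains the E-box CATCTG (9.75% and 2.09%). The highest-scored members without a core were at Rps14, Mir99ahg and Csrp2, with scores of 106.9, 74.9 and 50.2. Rps14 encodes a protein of the small ribosomal subunit, Mir99ahg is a host transcript of miRNAs, and Csrp2 encodes a LIM-domain protein of muscle and mesenchyme. The centres at Mir99ahg and Csrp2 are shown with these relatives of the core in capitals.
Mir99ahg (chr16:77500005-77500204, + strand): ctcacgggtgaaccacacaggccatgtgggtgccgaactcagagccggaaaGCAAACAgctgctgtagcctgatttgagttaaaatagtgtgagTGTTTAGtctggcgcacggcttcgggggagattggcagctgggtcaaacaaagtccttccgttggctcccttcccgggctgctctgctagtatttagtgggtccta
Csrp2 (chr10:110919635-110919834, + strand): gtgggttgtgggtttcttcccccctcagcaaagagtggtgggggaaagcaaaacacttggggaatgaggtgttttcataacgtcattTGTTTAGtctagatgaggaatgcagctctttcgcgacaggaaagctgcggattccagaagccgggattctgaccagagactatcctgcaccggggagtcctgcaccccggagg
Mir99ahg held GCAAACA and, on the other strand, CTAAACA, with 43 bp between their positions. Csrp2 held CTAAACA once, on the strand opposite to the gene.

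Recognition sequences of other factors were then compared, each searched on both strands in the same 200 bp. Of 25 motifs, 9 were more frequent and 1 less frequent in the lower-GC promoter peaks than in their flanks, and 15 did not pass the test (exact McNemar tests, adjusted over 25 motifs). The 25 include the forkhead core and GTAAACA alone, both among the 9. The flanks had no GC limit and lay outside the promoter window of the same TSS. Base composition and place can therefore differ in these comparisons as well. Against other peaks below 55% GC, 5 were more frequent, 8 were less frequent and 12 did not pass (Fisher's exact tests, adjusted over 25 motifs). Those more frequent than in other peaks were the GC box and the ETS, NRF1, cAMP response and ZNF143 sites, all known from promoters. The rule placed the members at a TSS and the other peaks away from one. These tests therefore do not separate a motif from promoter position. Promoter windows below 55% GC with no peak near held these 5 motifs in 2.90, 0.965, 0.677, 0.182 and 0.168%, given without a test. Motifs less frequent than in other peaks included the E-boxes CATCTG and CAGCTG, the SOX, TALE, RUNX and homeodomain sites, the TATA box and the forkhead core, of which the homeodomain site, the TATA box and the core did not hold within bins of GC content.

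The GC box GGGCGG, which SP and KLF factors bind, was present in 118 members (9.79%, interval 8.17 to 11.6). Their flanks had it in 3.73% (adjusted p = 5.13e-08), other peaks below 55% GC in 2.72% (odds ratio 3.88, Fisher's exact test, adjusted p = 3.89e-28) and GC-rich promoter peaks in 51.6%. The ETS site CCGGAAG was present in 35 members (2.90%), against 0.954% of flanks (adjusted p = 0.0172) and 0.568% of other peaks (odds ratio 5.23, Fisher's exact test, adjusted p = 2.53e-12). Both held within bins of GC content, where the odds ratios were 2.52 (95% interval 2.03 to 3.11) and 3.64 (2.47 to 5.36). The 35 members with the ETS site had a median distance of -125 bp from the TSS, and the highest-scored lay at Slc39a3, a zinc transporter gene, at Trmt12, a tRNA-modifying enzyme gene, and at Mkrn3.

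The cAMP response element TGACGTCA was found in 10 members (0.830%, interval 0.399 to 1.52), against 0.0830% of flanks (adjusted p = 0.0293) and 0.167% of other peaks (Fisher's exact test, adjusted p = 4.81e-04). Within bins of GC content its odds ratio was 4.05 (1.95 to 8.42). CREB and ATF factors bind this element. A forkhead core was also present in 9 of the 10 peaks (exact interval 55.5 to 99.7%), beside 70.0% of the members without the element, a share inside that interval. The 10 peaks lay at Ankrd13c, Trmt12, Pde7b, Zfp874b, Sgip1, Zfp874a, Lrrtm2, Ppp2r3d, 9330159F19Rik and Rnf220, at a median of -66 bp from the TSS. The NRF1 site GCGCATG was present in 1.66% of members and 0.758% of other peaks (Fisher's exact test, adjusted p = 0.00476), but its difference from the flanks, which had 0.788%, did not pass the test (adjusted p = 0.267). The ZNF143 site ACTACAATT was found in 4 members (0.332%) and in 0.0767% of other peaks (Fisher's exact test, adjusted p = 0.0401), and its difference from the flanks, which had 0.0415%, did not pass the test (exact McNemar test, adjusted p = 0.551).

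The E-box CATCTG, a site of the basic helix-loop-helix factors that include Twist1, was present in 18.7% of members. It was more frequent than in their flanks, with 13.1% (adjusted p = 0.00489), and less frequent than in other peaks below 55% GC, with 29.9% (odds ratio 0.538, Fisher's exact test, adjusted p = 4.72e-17). The E-box CAGCTG followed the same order, with 14.9% of members, 9.05% of flanks (exact McNemar test, adjusted p = 3.28e-04) and 18.7% of other peaks (Fisher's exact test, adjusted p = 0.00288). Within bins of GC content their odds ratios against other peaks were 0.543 (0.468 to 0.630) and 0.613 (0.521 to 0.722). The TALE site TGACAG of MEIS and TGIF factors (15.2% against 18.7%) and the RUNX site TGTGGT (11.3% against 14.4%) were also less frequent than in other peaks (Fisher's exact tests, adjusted p = 0.00449 and 0.00476). The RUNX site was the 1 motif less frequent than in the flanks, which had 15.8% (exact McNemar test, adjusted p = 0.0136).

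The TATA box TATAAA shares letters with the forkhead core on its AT-rich side. It was present in 20.9% of members, against 14.7% of flanks (exact McNemar test, adjusted p = 0.00437) and 27.8% of other peaks (Fisher's exact test, adjusted p = 7.92e-07), but of 252 members with it only 115 had a match clear of a core. Within bins of GC content its odds ratio against other peaks was 0.892 (0.771 to 1.03), so the difference did not hold there. At -40 to -20 bp from the TSS itself, where a TATA box is placed, it was present at 1.24% of the starts with a lower-GC promoter peak and 1.42% of those with a GC-rich one. The SOX site, searched as ACAAAG and ACAATG, was present in 29.0% of members and 27.6% of flanks (exact McNemar test, adjusted p = 0.766), and in 35.0% of other peaks (Fisher's exact test, adjusted p = 6.70e-05). TAATTA, a homeodomain site, was present in 4.23% of members, 5.52% of flanks and 6.69% of other peaks (Fisher's exact test, adjusted p = 0.00183), and within bins of GC content the odds ratio against other peaks was 0.775 (0.581 to 1.03). The TEAD site GGAATG was present in 14.5% of members, 10.9% of flanks (exact McNemar test, adjusted p = 0.0293) and 15.6% of other peaks (Fisher's exact test, adjusted p = 0.448). CCAAT, the site of NF-Y, was present in 22.7% of members and 22.7% of flanks, and in 27.7% of promoter windows below 55% GC with no peak near.

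**Figure D3:**
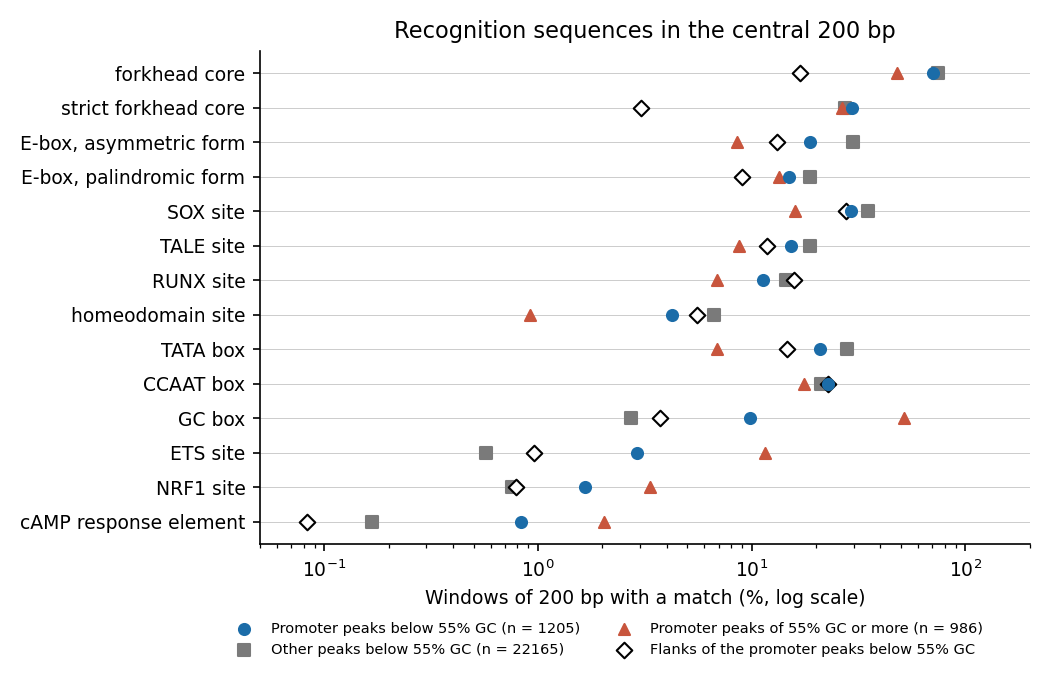
Share of 200 bp windows with a match (x axis, %, log scale) for 14 recognition sequences in lower-GC promoter peaks, other peaks below 55% GC, GC-rich promoter peaks and the flanks of the lower-GC promoter peaks. The GC box, ETS site and cAMP response element stand at 9.79, 2.90 and 0.830% in lower-GC promoter peaks, above the other peaks below 55% GC with 2.72, 0.568 and 0.167%.

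The lower-GC promoter peaks lay farther upstream than the GC-rich ones. Their median distance was -281 bp from the TSS against -75 bp, and 555 of them (46.1%) lay within 250 bp of the TSS against 729 GC-rich peaks (73.9%, odds ratio 0.301, Fisher's exact test, adjusted p = 9.93e-40 over 9 properties). The classes were split by the GC content of the peak itself, which can vary with distance from the TSS. The test therefore does not separate place from the rule. In the 100 bp downstream of the TSS lay 9.13% of the lower-GC and 29.8% of the GC-rich peaks. From -1000 to -751 bp lay 13.9% and 3.04%. When the GC limit was applied to 1000 bp around the TSS in place of the peak, the shares within 250 bp were 57.3% and 59.6% (Fisher's exact test, adjusted p = 0.332), so the difference did not pass the test under that choice.

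**Figure D4:**
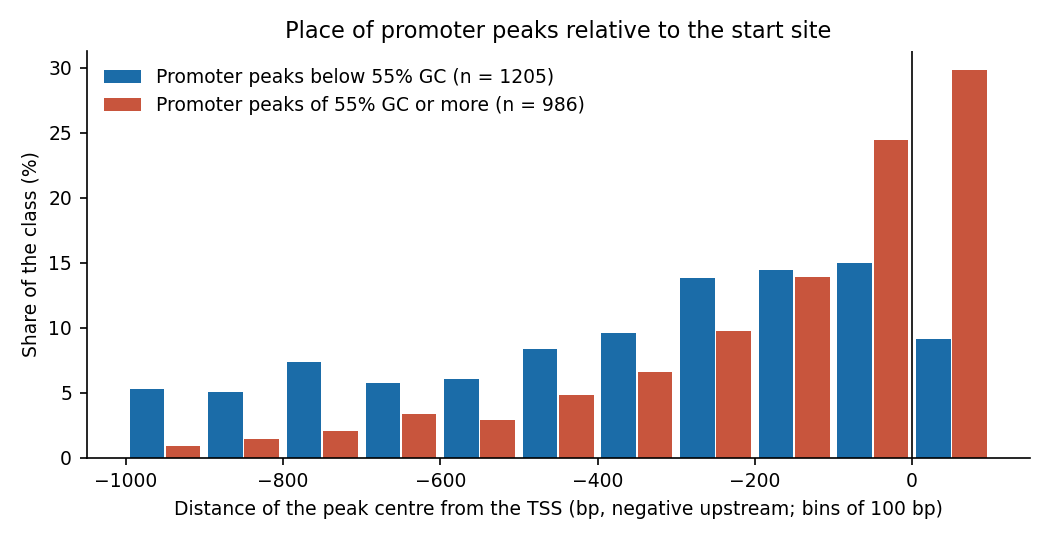
Share of each class (y axis, %) by distance of the peak centre from the TSS (x axis, bp, bins of 100 bp) for lower-GC and GC-rich promoter peaks. The bin downstream of the TSS holds 9.13% of the lower-GC and 29.8% of the GC-rich promoter peaks.

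Lower GC content at the peak did not always mean a start of lower GC content. Of the 1205 members, 414 (34.4%) had a TSS whose surrounding 1000 bp held 55% GC or more, against 82.0% of the GC-rich promoter peaks. At these 414 the peak lay at a median of -380 bp, and 68.1% held a forkhead core. At the other 791 starts the median distance was -230 bp and 71.3% held a core. An observed over expected CpG ratio of at least 0.6, as in CpG islands, was found at 84.3% of the 414 starts and 19.2% of the 791. By distance, the core was present in 76.0% of members from -1000 to -751 bp, 78.3% from -750 to -501 bp, and 72.1% from -500 to -251 bp. Nearer to the TSS it was present in 64.8% from -250 to -101 bp, 63.5% from -100 to -1 bp and 66.4% downstream.

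The annotated genes differed as well. The TSS belonged to a protein-coding gene for 725 members (60.2%) and 842 GC-rich promoter peaks (85.4%, odds ratio 0.258, Fisher's exact test, adjusted p = 9.93e-40). Long noncoding RNAs took 24.6% of members and 11.1% of GC-rich promoter peaks. Small RNAs took 5.64% and 1.12%, pseudogenes 4.81% and 0.609%, and transcripts annotated as still to be tested 4.65% and 1.83%. The core was present in 69.2% of the peaks at protein-coding genes, 70.4% at long noncoding RNAs, 74.1% at pseudogenes and 69.1% at small RNAs. A start of another gene on the opposite strand lay within 1000 bp for 17.9% of members and 30.7% of GC-rich promoter peaks (odds ratio 0.492, adjusted p = 7.98e-12, Fisher's exact test). The classes were split by GC content, which can vary between kinds of start. Neither test therefore separates these properties from the rule, and starts of like GC content without a peak were not compared.

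Another peak lay within 10 kb of 393 members (32.6%) and 235 GC-rich promoter peaks (23.8%, odds ratio 1.55, Fisher's exact test, adjusted p = 1.13e-05). The median distance to the nearest other peak was 23986 bp in members and 33104 bp in GC-rich promoter peaks. In the whole list it was 17119 bp, so both classes had more distant neighbours than the list. At least 50% of the central 200 bp was repeat-masked in 43 members (3.57%) and 6 GC-rich promoter peaks (0.609%, adjusted p = 3.02e-06, Fisher's exact test), a difference that did not pass the test among peaks at or above the median score (adjusted p = 0.157). The share was 3.27% in the whole list and 3.54% in other peaks below 55% GC, so the members stood near the share of all peaks. Alternative starts, over 500 bp from the first start of the gene, made up 125 of 725 coding-gene members (17.2%) and 140 of 842 such GC-rich peaks (16.6%, Fisher's exact test, adjusted p = 0.787). With the limit set at 2000 bp the shares were 13.9% and 8.67% (Fisher's exact test, adjusted p = 0.00181), a difference past the threshold. At the 125 alternative starts 74.4% of the peaks held a core and 24.0% of the starts had a CpG ratio of 0.6 or more, against 68.2% and 65.3% at the 600 first starts.

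Scores of the lower-GC promoter peaks ran from 10.1 to 209.7 with a median of 15.6. GC-rich promoter peaks had a median of 14.8 and a highest score of 135.7. The top 10% of the whole list by score, 10.1% of all peaks with ties, held 97 members (8.05%, interval 6.58 to 9.73). It held 102 GC-rich promoter peaks (10.3%, adjusted p = 0.0818) and 2256 other peaks below 55% GC (10.2%, odds ratio 0.773, Fisher's exact test, adjusted p = 0.0205). The difference from GC-rich promoter peaks passed the test among peaks at or above the median score (17.0% against 24.3%, Fisher's exact test, adjusted p = 0.00942) and with coding starts only (6.99% against 10.3%, adjusted p = 0.0289). The difference from other peaks did not pass the test when the GC limit was applied around the TSS (8.99% against 10.2%, Fisher's exact test, adjusted p = 0.325). The focus ratio, taken as higher for sharper peaks, was above the median of the list in 37.3% of members and 30.8% of GC-rich promoter peaks (odds ratio 1.34, Fisher's exact test, adjusted p = 0.00233). Among peaks at or above the median score this turned round, with 50.3% against 60.5% (Fisher's exact test, adjusted p = 0.00348).

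At the limit itself, 31 promoter peaks had 54.5% GC and 41 had exactly 55%. The highest-scored just inside were at Mir99ahg (74.9), Maz (48.6) and Ankrd13c (47.0), and just outside at 2900052L18Rik (93.4), Sept7 (84.3) and Prkdc (61.2).

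The 25 highest-scored members had scores from 64.8 to 209.7, and 23 of them held a forkhead core. Protein-coding genes accounted for 13. The highest, at Fam53c, had a score of 209.7 and lay 359 bp upstream of an alternative start. Colec10, which encodes a secreted collectin, followed with a score of 131.0 at 224 bp upstream, and its core GTAAACA lay 63 bp from the peak centre. Rps14 had 106.9 with no core, at a start 27.4 kb downstream of the first one of the gene.

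Regulators of transcription were among the next. Sox5, a SoxD factor of cartilage formation, had a peak of score 101.0 at 641 bp upstream with GTAAACA 9 bp from the centre. Hexim1, an inhibitor of the elongation factor P-TEFb, had a peak of 86.2 at 631 bp upstream with 2 cores. Cited2, a co-regulator that binds CBP and p300, had a peak of 76.5 at 894 bp upstream, where the 1000 bp around the TSS had 63.4% GC and the peak itself 54.0%. Foxl1, a forkhead gene of mesenchyme that neighbours Foxf1, had a peak of 73.0 at 397 bp upstream with 2 cores.

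Pde4b, which encodes a cAMP phosphodiesterase, had 2 promoter peaks at 1 alternative start 483 kb downstream of the first. Their scores were 98.2 at 39 bp upstream and 62.1 at 862 bp upstream, and each held 2 cores. Disp1, which encodes the protein that releases lipid-modified Hedgehog from the cell, had a peak of 64.8 at 455 bp upstream of a start 74.0 kb from the first. The other protein-coding genes of the 25 were Klhl38 (76.3), Synpo (73.8), an actin-associated protein gene, March2 (71.7), a membrane ubiquitin ligase gene, and Cd300e (70.0), a receptor gene of myeloid cells.

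Among starts of other annotations, the highest scores were at Gm22827 (103.6, a small nuclear RNA), Gm47007 (102.5) and Gm48812 (99.4), both long noncoding RNAs, Gm29486 (80.1, a pseudogene) and Gm9951 (79.1, a long noncoding RNA). They were followed by Scarna2 (76.4), a small Cajal body RNA, Gm12871 (75.8), Mir99ahg (74.9), Cdrt4os1 (73.2), Gm44744 (71.0), Mir30b (68.4) and Gm37883 (68.3). The start nearest to a peak is the one annotated, and no transcript levels were measured, so use of these starts in the tongue was not tested.

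**Figure D5:**
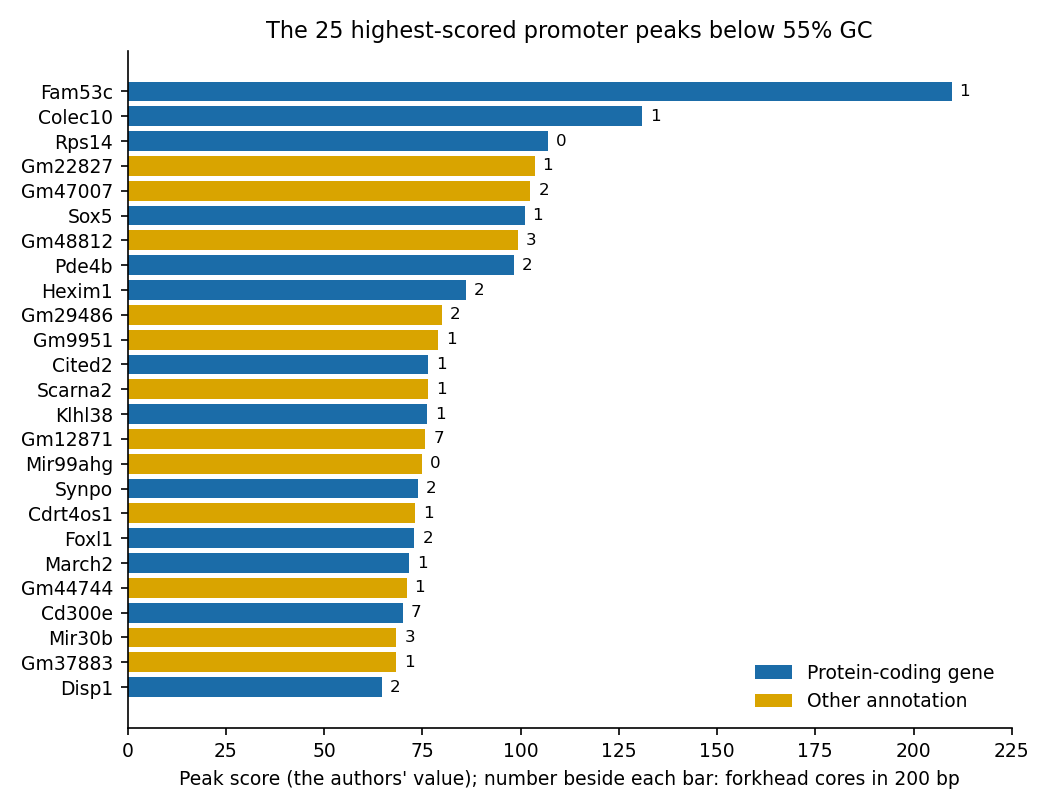
Peak score (x axis, the authors' value) of the 25 highest-scored lower-GC promoter peaks, by gene, with the number of forkhead cores in the central 200 bp beside each bar. Fam53c stands at 209.7 and Disp1 at 64.8, and Rps14 and Mir99ahg have no core.

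Tandem cores stood at 2 of these 25 peaks. The peak at Gm12871, a processed pseudogene, held 7 cores at regular steps of 16 bp, and the peak at Cd300e held 7 cores in sequence of which 94.0% was repeat-masked. Both are printed with the cores in capitals to show the periodic copies.
Gm12871 (chr4:120900547-120900696, + strand): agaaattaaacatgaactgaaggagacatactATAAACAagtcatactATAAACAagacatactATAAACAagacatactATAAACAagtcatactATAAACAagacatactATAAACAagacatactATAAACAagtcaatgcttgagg
Cd300e (chr11:115062849-115063048, - strand): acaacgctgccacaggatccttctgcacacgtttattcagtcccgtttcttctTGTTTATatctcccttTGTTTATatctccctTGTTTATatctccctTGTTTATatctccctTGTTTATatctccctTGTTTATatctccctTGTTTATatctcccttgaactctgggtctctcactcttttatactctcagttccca
The copies at Gm12871 all read ATAAACA on the strand of the gene, and those at Cd300e all read the same form on the opposite strand. Alignment of short reads within such repeats can be uncertain, and its part in these 2 scores was not tested. Over all 43 members with at least 50% repeat-masked bases the median score was 13.5 and 65.1% held a core.

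The miRNA genes with a peak included 2 of the miR-30 family, whose seed is itself a forkhead core. Of 25 members at miRNA starts 22 held a core, beside 69.1% of the 68 members at small RNAs of any kind, and in 2, at Mir30b and Mir30c-2, the core lay inside the hairpin. Mir30b had a score of 68.4 with the peak centre 26 bp into the hairpin, and Mir30c-2 had 50.1 with the centre 17 bp into it. The annotated start of a miRNA gene is the first base of its hairpin, not the start of the primary transcript, so these peaks lie on the hairpins and their relation to a promoter was not tested. The family was looked at after these values were seen. The peak centre at Mir30c-2 is printed with its cores in capitals, followed by both mature miRNAs from RefSeq (GRCm38.p6). Capitals mark the seed, bases 2 to 8, in the first miRNA, and the reversed core in the second.
Mir30c-2 (chr1:23291659-23291778, + strand): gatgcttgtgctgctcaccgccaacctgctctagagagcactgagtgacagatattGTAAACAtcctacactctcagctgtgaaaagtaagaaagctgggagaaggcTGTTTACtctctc
mmu-miR-30c-5p (chr1:23291714-23291736, + strand): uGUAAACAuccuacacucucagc
mmu-miR-30c-2-3p (chr1:23291754-23291775, + strand): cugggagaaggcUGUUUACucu
The first core of the peak had the same coordinates as the seed of miR-30c-5p, 23291715 to 23291721 on chromosome 1. The second, 51 bp on, lay in the 3p arm from 23291766 to 23291772. The peak at Mir30b held 3 cores, 2 of them inside its hairpin. The remaining family members had no promoter peak: the nearest peak to Mir30a lay 7.66 kb upstream (11.4), the nearest to Mir30d was the Mir30b peak 3.81 kb away, and those nearest to Mir30c-1 and Mir30e lay 36.6 and 39.7 kb away. The seed is shared by the family, and 4 of these 6 hairpins had no peak on them.

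With each peak given only to the gene of its nearest TSS, 1193 genes had a lower-GC promoter peak, and 12 of them had 2. Pde4b had the highest scores. Csrp2 had peaks of 50.2 and 32.4 at 55 and 845 bp upstream of 1 start, neither with a core, and Arid5b, which encodes an ARID DNA-binding protein, had 34.5 and 29.1 at 969 and 467 bp upstream. Derl1 and Agbl5 had scores of 27.6 and 14.0, and of 25.9 and 24.9. Those of the other 7, Gramd3, Lsm6, Fbxo15, Tacc2, Gm26912, 4930550C14Rik and Ston2, ran from 10.1 to 27.2.

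For the shares of genes, every gene whose promoter window held a peak was counted, not only the nearest. Of 21911 protein-coding genes, 778 (3.55%) had a lower-GC promoter peak and 932 (4.25%) a GC-rich one, with 35 genes having both. Against this background, 53 of 649 genes in 27 lists for tongue mesenchyme, its signals and its other cell types had a lower-GC promoter peak (8.17%). A core was held by 36 of the 53 peaks, beside 70.2% of all members. GC-rich promoter peaks stood at 63 of the 649 genes (9.71%), so a share above the background was seen for both classes. The GC-rich share was the higher in the lists of retinoic acid genes (11.1% lower-GC, 27.8% GC-rich), tendon genes (5.88% and 23.5%) and FGF genes (4.17% and 16.7%), among others. The lists were made with earlier results of these data known, so they are given as counts without a test.

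Among forkhead genes 5 of 27 (18.5%) had one: Foxl1 (73.0), Foxp2 (33.4), Foxo1 (27.9), Foxp1 (16.1) and Foxm1 (14.9). Each held at least 1 core, as did 70.2% of all members. GC-rich promoter peaks stood at 6 of the 27 (22.2%). The peaks at Foxp2 and Foxp1 stood at starts 284 and 254 kb from the first. Foxf1 and Foxf2 had no promoter peak: the nearest peak to Foxf1 lay at -1138 bp from its TSS (34.0, 58.0% GC) and the nearest to Foxf2 at 6775 bp (231.2). Transcription factors of craniofacial mesenchyme had 4 of 44: Nr2f1 (16.9), Eya1 (14.5), Tbx18 (13.1) and Lhx8, which shares a peak of 37.2 with the noncoding AI606473.

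Of Hedgehog genes 2 of 18 had a peak, Disp1 and the co-receptor gene Boc (10.4, with 3 overlapping cores within 10 bp of the centre). TGF-beta genes had 5 of 20. They were the nuclear repressor gene Tgif1 (43.1), the signal transducer Smad3 (22.8), the ligand Tgfb2 (13.6), the receptor Tgfbr1 (12.9) and the ligand-binding Ltbp1 (11.2), the last 2 without a core. BMP genes had 3 of 26, the receptor Bmpr1b (17.7), the ligand Bmp5 (14.4) and the receptor Acvr2a (13.8). WNT genes had 3 of 42, the feedback inhibitor Axin2 (21.9), the receptor Lgr4 (10.6) and the secreted antagonist Sfrp1 (10.3). FGF genes had 1 of 24, the mesenchymal ligand Fgf7 (17.0), and Notch genes 1 of 24, the coactivator Maml2 (10.2).

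Genes of HGF, chemokine and PDGF signalling had 4 of 15, the largest share among the 27 lists (26.7%). Pdgfra, the receptor of mesenchyme, had a peak of 43.0 at 17 bp upstream of its TSS. Pdgfrb, the receptor of pericytes, had 16.9 at 228 bp upstream. The ligands Hgf and Pdgfd had 15.9 and 15.2, at 84 bp upstream and 65 bp downstream. Hgf guides migrating muscle precursors through its receptor Met, and its promoter held GTAAACA 7 bp from the peak centre, in capitals in the sequence that follows.
Hgf (chr5:16553407-16553526, + strand): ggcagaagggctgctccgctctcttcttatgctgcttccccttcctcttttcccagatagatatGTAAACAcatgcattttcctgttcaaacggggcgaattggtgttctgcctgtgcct
Pdgfra, Hgf and Pdgfd held a core, and Pdgfrb did not.

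Matrix and cell structure genes followed. Extracellular matrix genes had 3 of 40, the fibrillar collagen genes Col3a1 (42.8) and Col5a2 (20.3) and the elastic fibre gene Fbln5 (28.2). Col3a1 and Col5a2 held a core 10 and 3 bp from the centre, and Fbln5 held none. Genes of the cytoskeleton had 3 of 33, with Cald1, which encodes the actin regulator caldesmon, at 54.5, Pdlim3 at 11.1 and Myl9 at 10.2. Tendon genes had 1 of 17, Mfap5 (11.4), and adhesion and guidance genes 3 of 35, Epha7 (16.6), Plxna2 (11.8) and Cdh6 (11.3). Cartilage and bone genes had 3 of 17, Sox5 (101.0), Runx2 (22.0) and Sox6 (16.5), all with a core, beside 70.2% of all members. Genes of the insulin-like growth factor axis had 3 of 16, Igf1 (17.0), Igfbp6 (14.5) and Igfbp4 (12.6), Hippo genes 2 of 20, Ajuba (34.6) and Amotl2 (21.9), and retinoic acid genes 2 of 18, Dhrs3 (18.7) and Rarb (12.3).

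Lists for other cell types are given beside the 3.55% of all protein-coding genes with a lower-GC promoter peak. Smooth muscle and pericyte genes had 2 of 18 (11.1%), Pdgfrb and Rgs5 (14.2). Skeletal muscle genes had 1 of 32 (3.12%), Mef2c (22.6, at a start 69.6 kb from the first), and endothelial genes 1 of 21 (4.76%), Erg (33.3). Ribosomal protein genes had 1 of 30 (3.33%), Rps14. In lists this short, an absence from any 1 list cannot be told apart from the background share. None was found among 25 genes of epithelium, 11 of neural crest and glia, 23 of blood and macrophages, 15 of liver and 28 of the cell cycle, where epithelium had 1 gene with a GC-rich promoter peak and the cell cycle had 2. These counts hold for the listed genes only. Outside them, lower-GC promoter peaks stood at Cd300e (70.0), the receptor gene of myeloid cells, and at the cell cycle genes Orc1 (39.4) and Wee1 (19.5).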

How the data were processed

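The data were 1 deposited list of 25707 peaks of 212 bp from 2 anti-FLAG ChIP libraries and 1 input library. Reads were aligned to mm10 with Bowtie2 2.4.1, handled with SAMtools 1.7.1 and peaks called with HOMER, per the design text and the submitters' processing notes. Not given in the sources used here: caller version and parameters, pooling, depth. The deposited score is the authors' own, has no stated scale and ranks peaks within the list only. The focus ratio is a deposited fraction per peak, read as such because every peak has the same width.

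Peaks off the main chromosomes (3) were left out. GENCODE M21 basic starts and GRCm38 sequence gave class, GC content and motif matches. Presence of a motif was compared by two-sided exact McNemar tests against windows 2000 bp away on either side, keeping the larger p, and by two-sided Fisher's exact tests between classes, with Benjamini-Hochberg adjustment over 25 motifs or 9 properties and a threshold of 0.05. Intervals are exact (Clopper-Pearson, 95%) and cover counting of peaks only. Tools were Python 3.11.15, pysam 0.24.0, scipy 1.17.1 and statsmodels 0.14.6, and the tests were checked on simulated data.

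Named genes were those of the 25 highest-scored members, genes with most members, up to 4 per list by score (1 more in 2 of the lists), the highest noncoding starts, Foxf1, Foxf2 and the 3 highest-scored peaks on either side of the limit. Genes named for a motif, for lacking a core, for the miR-30 seed or as examples outside the lists were chosen after their values were seen. The members and lists were chosen with earlier results of these data known. The result of 1 gene list and 1 peak sequence are not reported here. Alternatives covered score, GC limit, windows, motif form, start set and GC bins.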

Additional observations from a re-analysis of the deposited data

How the results depend on the processing

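Of 108 alternatives for 12 results, 89 kept their direction and side of the threshold, 12 lost the call, 5 gained one and 2 reversed. Values are differences in percentage points, lower-GC promoter peaks minus the class compared, and the cause was not tested. The core against other peaks below 55% GC (-4.35) moved to -2.60 at or above the median score, -2.20 with a limit of 50% GC, -2.33 with 1000 bp on either side of the TSS and -2.47 over GC bins, none past the threshold, and reversed to 2.18 for GTAAACA alone. The core against GC-rich promoter peaks (22.2) moved to 1.93 at or above the median score and 2.91 for GTAAACA, neither past the threshold, and to 12.4 with GC taken around the TSS, past it. With higher-scored peaks only, the top 10% against GC-rich promoter peaks (-2.30) gave -7.24, past the threshold, that against other peaks (-2.13) -2.98 and repeats (2.96) 1.33, neither past it, and focus ratio (6.51) reversed to -10.2. With coding starts only, the top 10% against GC-rich promoter peaks gave -3.36, past the threshold, and focus ratio 1.26, not past it. With GC taken around the TSS, the top 10% against other peaks gave -1.19, place within 250 bp (-27.9) gave -2.27 and repeats 1.36, none past the threshold, while alternative starts (0.614) gave 11.8, past it. Alternative starts also passed with 1000 bp on either side (5.33) and with a 2000 bp limit (5.26). The core against the flanks and the shares at coding genes, near another peak and near an opposite start kept their calls under every alternative run for them. No paired analysis was possible because the list gives no value per library, and leaving out a replicate could not be run for the same reason. Depth is unknown, so a promoter without a peak is not shown to be unbound.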
